A study of Mus musculus with 4 samples.

Results

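Neurog3 encodes a basic helix-loop-helix transcription factor that is switched on for a short time in crypt cells that will become enteroendocrine cells, the hormone-secreting cells of the gut lining. The cells described here are the barcodes (single-cell droplets) of 4 mouse small-intestine libraries that held 2 or more unique molecular identifiers (UMIs, each standing for 1 captured transcript) of Neurog3. A barcode also needed at least 1000 UMIs, at least 500 genes and under 30% mitochondrial UMIs. The rule found 268 barcodes among 32872 kept in the series: 50 of 4533 in wild type 1, 89 of 8189 in wild type 2, 78 of 11503 in mutant 1 and 51 of 8647 in mutant 2. No barcode with 2 or more Neurog3 UMIs was lost to the quality limits. The cells were thus chosen by their measured Neurog3 UMIs, so the level of Neurog3 is given only as a description.

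As background, enteroendocrine cells arise from crypt stem cells by way of secretory precursors. A precursor that escapes Notch signalling turns on Atoh1 and displays the Notch ligand Dll1 to its neighbours, and some such precursors then express Neurog3, without which the intestine makes no enteroendocrine cells. Neurog3 is followed by a set of transcription factors, among them Neurod1, Insm1, Nkx2-2, Rfx6 and Pax4, and later by hormones and the proteins of secretory granules. Other secretory precursors become goblet or Paneth cells.

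All 4 libraries came from small-intestinal epithelial cells of mice aged 25 weeks that were dissociated, sorted by flow cytometry with antibodies against CD45, CD31, TER-119 and CD326 (EpCAM) plus DAPI, and loaded on the 10x Genomics 3' v3.1 platform. The mutant mice carry TrnA G5081A, a point mutation of the mitochondrial gene for alanine transfer RNA, at a labelled mutation load (the mutated share of mitochondrial DNA copies) of 77% in mutant 1 and 81% in mutant 2. Wild type 1 and mutant 1 form set A, processed with Cell Ranger 7.0.0. Wild type 2 and mutant 2, both titled male, form set B, processed with Cell Ranger 7.1.0, so each set holds 1 library of each genotype. The labels name no strain, no parentage of the controls and no tissue in which the load was measured. Colitis appears in the title of the series, and none of the 4 libraries is labelled with a treatment. The labels do not say whether libraries of a genotype came from separate animals, and p-values therefore reflect no more than the spread among the 4 libraries, which may be technical.

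The kept barcodes held 96196202 to 124593747 UMIs per library, and the median per barcode was 21250 UMIs in wild type 1 and 9861 to 11236 UMIs in the other 3. The Neurog3 cells summed to 771149 to 1272951 UMIs per library, with medians of 18898 and 11214 UMIs per cell in wild type 1 and 2 and 8779 and 11627 UMIs in mutant 1 and 2. Any pair of libraries shared 26 to 60 barcode sequences. Epcam, the epithelial adhesion molecule used in the sort, lay at 1676 to 2559 CPM (UMIs scaled to a common library total) in the Neurog3 cells. It lay at 2302 to 3315 CPM in barcodes without Neurog3 and was the higher there in every library. Pecam1, the gene of CD31, stood at 20.5 and 0.786 CPM in wild type 1 and 2 and 2.00 and 5.19 CPM in mutant 1 and 2. Barcodes without Neurog3 gave 0.675 to 1.49 CPM of Pecam1. Among markers of other cell types, all 15 goblet markers had UMIs in the Neurog3 cells, with a summed level of 7668 to 14035 CPM against 17130.4 to 29961 CPM in barcodes without Neurog3. All 13 Paneth cell markers also had UMIs, summing to 1136 to 11303 CPM against 21783 to 74922 CPM. The 15 tuft cell markers had 11 members with UMIs, with Trpm5, Il25, Gfi1b and Hmx2 at 0. The 15 enterocyte markers summed to 1086 to 2741 CPM against 3661 to 10411 CPM. Of 13 immune markers, 7 were at 0 in the Neurog3 cells, among them Cd3e, Cd3g, Cd3d and Cd79a. A doublet caller set to a fixed expected rate marked 41 Neurog3 cells (15.3%) and 9.49% of barcodes without Neurog3, and 5 Neurog3 cells, 2 of mutant 1 and 3 of wild type 2, had 10% or more of their UMIs from defensins.

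The label of these cells was checked against 4 further markers. Insm1, a zinc-finger transcriptional repressor that endocrine differentiation needs, had a UMI in 231 cells (86.2%), the homeodomain factor Nkx2-2 in 208 (77.6%), the winged-helix factor Rfx6 in 221 (82.5%) and Gfra3, a co-receptor of the GDNF family, in 209 (78.0%). All 4 were detected together in 166 cells (61.9%), 3 of the 4 in 50 cells, 2 in 23, 1 in 9 and none in 20 (7.46%). The markers thus bear out the label for most of the 268 barcodes. Just inside the threshold, 8 of the 32 cells with exactly 2 Neurog3 UMIs had none of the 4 markers. Just outside it, 107 of the 151 barcodes with exactly 1 Neurog3 UMI (70.9%) had none.

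The upstream sequences of Neurog3 and of 3 transcription factor genes that were high in these cells are shown because Neurog3 and Neurod1 belong to the protein family that binds E-boxes (CANNTG). Each line gives the 250 bases before the gene's start, 5′ to 3′ on the coding strand, from RefSeq on GRCm38.p6, with any CAGATG, its reverse complement CATCTG, or the palindrome CAGCTG in capitals. The Neurog3 gene itself lies at chr10:62133090-62134763 and Insm1 at chr2:146221921-146225020, both on the plus strand, and Pax4 at chr6:28442334-28449353 on the minus strand, all protein-coding in the GENCODE annotation used here. The windows are chr10:62132840-62133089 on the plus strand for Neurog3, and on the minus strand chr2:147186403-147186652 for Nkx2-2, chr11:98329646-98329895 for Neurod2 and chr2:79456637-79456886 for Neurod1.
Neurog3: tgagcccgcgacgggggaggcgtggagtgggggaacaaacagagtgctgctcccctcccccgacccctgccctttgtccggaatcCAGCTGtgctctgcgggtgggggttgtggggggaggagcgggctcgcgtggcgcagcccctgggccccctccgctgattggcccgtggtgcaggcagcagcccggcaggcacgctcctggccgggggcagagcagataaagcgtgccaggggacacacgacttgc
Nkx2-2: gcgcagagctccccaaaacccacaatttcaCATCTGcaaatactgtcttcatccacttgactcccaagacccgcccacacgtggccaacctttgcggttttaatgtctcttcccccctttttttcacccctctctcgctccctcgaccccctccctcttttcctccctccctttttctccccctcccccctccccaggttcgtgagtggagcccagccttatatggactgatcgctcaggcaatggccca
Neurod2: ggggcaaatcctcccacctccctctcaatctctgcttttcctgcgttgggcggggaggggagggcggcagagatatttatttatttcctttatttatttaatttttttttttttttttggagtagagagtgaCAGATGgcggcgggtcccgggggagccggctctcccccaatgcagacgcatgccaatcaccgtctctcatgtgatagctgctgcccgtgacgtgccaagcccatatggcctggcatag
Neurod1: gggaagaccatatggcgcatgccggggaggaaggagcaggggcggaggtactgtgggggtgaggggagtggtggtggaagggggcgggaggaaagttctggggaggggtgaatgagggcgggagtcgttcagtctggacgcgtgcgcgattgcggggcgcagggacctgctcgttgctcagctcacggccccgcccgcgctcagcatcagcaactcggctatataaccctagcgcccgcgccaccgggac

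The Neurog3 window held CAGCTG 165 bases before the start, the Nkx2-2 window CATCTG 220 bases before it and the Neurod2 window CAGATG 118 bases before it. The Neurod1 window held neither motif. Among further factors high in these cells, whose windows are not printed, Sox4 and Cbfa2t3 held a motif and Rfx6 held neither. Insm1 and Pax4 had no upstream sequence in the source used, so only their positions are given. Of 27025 gene promoters of this length in the table, searched on both strands, 14.5% held CAGATG, 12.8% held CAGCTG and 25.3% held either. Of the 26 endocrine transcription factor genes found higher in the Neurog3 cells than in barcodes without Neurog3 (below), 20 had a promoter in the table, and 8 of these (40.0%) held either motif. Of the 18 other endocrine progenitor genes found higher, 12 had a promoter in the table and 1 (8.33%) held either. These counts describe letters only.

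The transcription factors of the endocrine program set these cells apart from the other barcodes. UMIs were summed per library over the Neurog3 cells and over the 32453 kept barcodes with 0 Neurog3 UMIs, and compared with the edgeR quasi-likelihood test with library as a block and Benjamini-Hochberg adjustment. Of 15228 genes tested, 2744 (18.0%) were higher and 3417 (22.4%) lower in the Neurog3 cells at an adjusted p under 0.05. Of 33 endocrine transcription factors that passed the filter on low counts, out of 35 measured, 26 were higher, 2 lower and 5 not called, with a median log2 ratio of 3.24 against -0.09 over all genes tested. The list holds factors known from endocrine cells and was drawn up with earlier results of these data known. Over both directions 40.5% of all genes tested were called.

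Insm1 stood at 312 and 294 CPM in the wild type libraries and 228 and 284 CPM in the mutant libraries, with 2.73 to 4.08 CPM in barcodes without Neurog3 (log2 ratio 6.24, SE 0.11, adjusted p = 2.3e-24). Nkx2-2 stood at 237 and 354 CPM in the wild type libraries and 237 and 278 CPM in the mutant libraries, with 2.92 to 4.22 CPM elsewhere (log2 ratio 6.01, SE 0.11, adjusted p = 5.1e-24). Rfx6 stood at 473 and 643 CPM in the wild type libraries and 338 and 490.2 CPM in the mutant libraries, with 11.6 to 18.8 CPM elsewhere (log2 ratio 4.93, SE 0.14, adjusted p = 1.3e-20). For all 3 genes every library's Neurog3 cells lay far above every library's other barcodes. Gfra3 stood at 207 and 244 CPM in the wild type libraries and 203 and 246 CPM in the mutant libraries (log2 ratio 6.02, SE 0.14, adjusted p = 3.2e-22), again without overlap between the classes.

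Neurod1, which follows Neurog3 in the same family of proteins, was detected in 145 cells (54.1%) and stood at 239 and 389.6 CPM in the wild type libraries and 161 and 239.9 CPM in the mutant libraries (log2 ratio 4.58, SE 0.11, adjusted p = 7.2e-22). Its relative Neurod2 stood at 80.2 and 74.6 CPM in the wild type libraries and 71.0 and 49.3 CPM in the mutant libraries, while barcodes without Neurog3 gave 0.108 to 0.244 CPM (log2 ratio 8.59, SE 0.27, adjusted p = 1.2e-19). Pax4, a paired-homeodomain repressor, stood at 45.2 and 62.1 CPM in the wild type libraries and 37.0 and 58.4 CPM in the mutant libraries against 0.203 to 0.285 CPM (log2 ratio 7.50, SE 0.29, adjusted p = 2.5e-17). For these 3 factors the lowest library of Neurog3 cells lay well above the highest of the other barcodes. Sox4, a high-mobility-group factor of the early endocrine lineage, had UMIs in 261 of the 268 cells and stood at 1306 and 989.8 CPM in the wild type libraries and 957 and 953 CPM in the mutant libraries (log2 ratio 3.67, SE 0.11, adjusted p = 7.4e-20). The zinc-finger factors Myt1 (5.18) and St18 (3.53), Rfx3 (3.24), Prox1 (3.42), Foxa2 (2.94) and Cbfa2t3 (2.32) were also higher, in log2 ratio. Among factors of mature enteroendocrine subtypes, Onecut3 and Hhex had no UMI in any Neurog3 cell. Both were also scarce in barcodes without Neurog3, at 0.879 and 0.618 CPM pooled over libraries.

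For part of this program these few cells held much of the UMIs in the series. The 268 cells carried 0.974% of all UMIs in the kept barcodes with 0 or at least 2 Neurog3 UMIs, but 81.6% of the Neurod2 UMIs, 68.2% of those of Pax4, 46.7% of Insm1, 42.8% of Nkx2-2 and 42.3% of Gfra3. The shares were lower for Rfx6 (26.6%), Neurod1 (22.6%) and Sox4 (12.9%), which other barcodes also expressed. Ooep, known as an oocyte-expressed gene, had 88.2% of its UMIs in the Neurog3 cells and stood at 93.9 and 314 CPM in the wild type libraries and 185 and 237 CPM in the mutant libraries, 646-fold above the 0.127 to 0.385 CPM of barcodes without Neurog3 (adjusted p = 2.3e-25). Tubb3, a tubulin known from neurons, had 78.1% of its UMIs there and stood at 87.9 and 60.5 CPM in the wild type libraries and 102 and 79.1 CPM in the mutant libraries (log2 ratio 8.31, SE 0.20, adjusted p = 9.9e-22). Slc39a2, a zinc transporter, stood at 177 and 107 CPM in the wild type libraries and 91.0 and 118 CPM in the mutant libraries (log2 ratio 7.61, SE 0.16, adjusted p = 1.0e-22). Among the other genes of largest ratio were the long noncoding RNA Miat (184-fold), Lypd1 (122-fold), the neuronal pentraxin Nptx1 (116-fold), the actin-binding Dbn1 (101-fold) and Fgd2 (81.8-fold). The genes lowest against barcodes without Neurog3 were markers of other lineages and hormones: Sst (35.3-fold lower), Gip (32.4-fold), Nts (24.1-fold), the Paneth lectin Mptx2 (17.7-fold), the defensins Defa36, Defa34 and Defa29, Gm15292 and the lipase Pnliprp2 (13.4-fold). Dclk1, a tuft cell kinase, had so few UMIs in the Neurog3 cells that its ratio is wide (73.0-fold lower, with a 95% counting interval of 20.2 to 603). The defensins are near-identical genes whose reads the counting could have split, so their separate values are uncertain.

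The endocrine progenitor genes followed the transcription factors. Of 20 tested out of 23 measured, 18 were higher, 1 lower (the signalling regulator Rgs2, -0.35) and 1 not called, with a median log2 ratio of 2.90. Gadd45a, a growth-arrest gene, stood at 619.7 and 348 CPM in the wild type libraries and 433 and 324 CPM in the mutant libraries (log2 ratio 3.49, SE 0.13, adjusted p = 3.5e-18). Btg2, an antiproliferative gene, stood at 368 and 304 CPM in the wild type libraries and 365 and 303 CPM in the mutant libraries (log2 ratio 2.11, SE 0.10, adjusted p = 1.0e-15). Cdkn1a, which encodes the cell-cycle inhibitor p21, stood at 649.5 and 381 CPM in the wild type libraries and 339 and 333 CPM in the mutant libraries (log2 ratio 1.75, SE 0.13, adjusted p = 1.7e-11). Cdkn1a was highest in wild type 1, with the other 3 libraries close together, and all 4 lay above the 83.9 to 124 CPM of barcodes without Neurog3. Rcor2 (5.69), Btbd17 (6.43), Trp53i11 (3.57) and Marcksl1 (3.16) were higher as well. Of 20 cell-cycle exit genes tested, 10 were higher, among them Gadd45g (3.31), Trp53inp1 (2.66) and Cdkn1c, the inhibitor p57 (4.02). Another 6 were lower, among them the cyclins Ccnd1 (-1.23) and Ccnd2 (-0.81).

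Of 26 S phase genes tested none was higher and 14 were lower (median log2 ratio -0.45), and of 28 G2 and M phase genes none was higher and 15 were lower (median -0.41). Top2a, the mitotic topoisomerase, had a UMI in 92 Neurog3 cells (34.3%) and stood at 184 and 200.3 CPM in the wild type libraries and 120.0 and 207 CPM in the mutant libraries against 181 to 216 CPM (log2 ratio -0.36, SE 0.11, adjusted p = 0.00839), so the 2 ranges overlap between libraries. Mki67, the classical proliferation marker, gave a log2 ratio of -0.47. All 13 mRNAs encoded by mitochondrial DNA were lower than in barcodes without Neurog3, by a median of -0.53. Of 30 integrated stress response genes tested, 4 were higher, such as Ddit4 (1.67), 13 were lower and 13 not called. Stem cell genes were mixed, with 5 of 19 higher and 11 lower: Lgr5 gave -1.49 and Olfm4 -1.13, while Prom1, the gene of the surface protein CD133, gave 2.20 and stood at 492 and 475 CPM in the wild type libraries and 275 and 490.2 CPM in the mutant libraries.

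**Figure D1:**
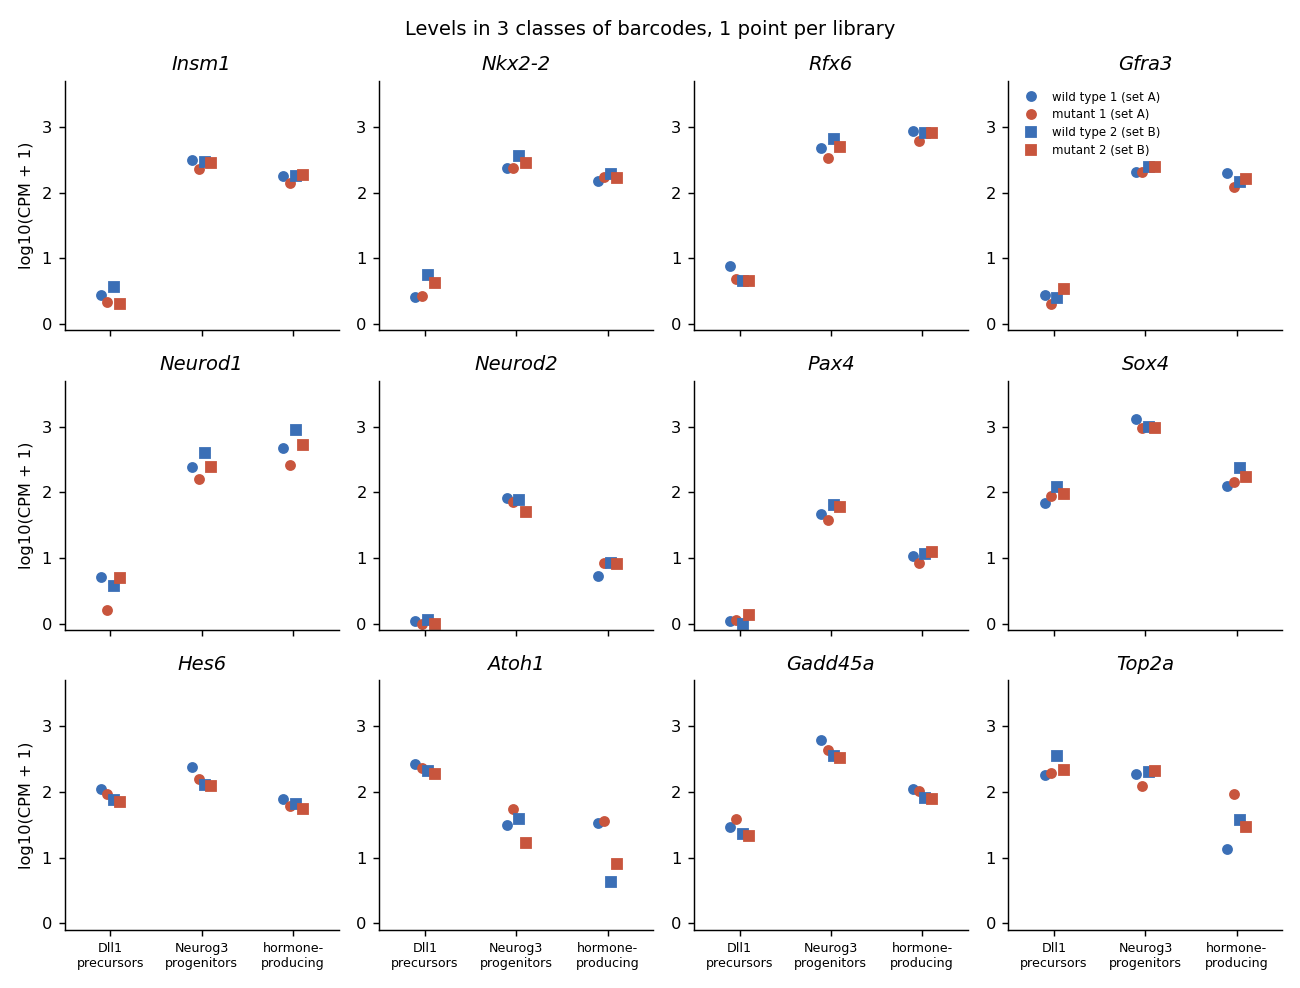
Level of 12 genes, as log10(CPM + 1) on the vertical axis, in Dll1 secretory precursors, Neurog3 progenitors and hormone-producing cells, with 1 point per library (circles set A, squares set B; blue wild type, red mutant). Neurod2 and Pax4 are highest in the Neurog3 progenitors in all 4 libraries, whereas Neurod1 and Rfx6 are higher still in the hormone-producing cells and Atoh1 is highest in the Dll1 precursors.

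Against barcodes taken as the nearest earlier class, the Neurog3 cells stood higher in endocrine genes and lower in goblet genes. Dll1 secretory precursors were taken as the 2459 barcodes with 2 or more Dll1 UMIs and no Neurog3, so Dll1 is not tested here. Of 11294 genes tested, 2219 (19.6%) were higher and 2342 (20.7%) lower in the Neurog3 cells, 40.4% in all. Of 29 endocrine transcription factors tested, 24 were higher, none lower and 5 not called (median log2 ratio 4.37, against -0.03 over all genes). Insm1 stood at 1.01 to 2.63 CPM in the precursors and was higher in the Neurog3 cells (log2 ratio 7.26, SE 0.15, adjusted p = 1.4e-11). Nkx2-2 stood at 1.57 to 4.57 CPM there (log2 ratio 6.64, SE 0.16, adjusted p = 2.9e-11) and Neurod1 at 0.583 to 4.11 CPM (log2 ratio 6.39, SE 0.25, adjusted p = 1.5e-09). All 3 were thus nearly undetected in the precursors of every library. Neurod2 had 3 UMIs over all precursors and was 1174-fold higher, with a 95% counting interval of 398 to 5727. Miat had none, and was at least 670.0-fold higher against the floor of 3 UMIs over the 4 libraries. Sox4, at 68.8 to 120.0 CPM in the precursors, was already present there and was higher in the Neurog3 cells by a log2 ratio of 3.39. Nefm, a neurofilament gene, was 173-fold higher. Of 23 granule genes tested, 20 were higher and none lower.

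All 15 goblet cell markers were lower in the Neurog3 cells than in the Dll1 precursors, with a median log2 ratio of -2.69. The precursors themselves held goblet transcripts, such as Spink4 at 5566 to 8225 CPM. Precursors with 10% or more defensin UMIs numbered 6 in wild type 1 and 11 in wild type 2. They numbered 31 in mutant 1 and 13 in mutant 2. The part of cells already of goblet or Paneth type in these ratios was not tested. Spdef, a transcription factor of goblet and Paneth cells, stood at 16.2 and 22.0 CPM in the wild type libraries and 25.0 and 14.3 CPM in the mutant libraries against 76.7 to 141 CPM (log2 ratio -2.44, SE 0.20, adjusted p = 1.1e-06). Atoh1, the factor that starts the secretory fate, stood at 29.9 and 37.7 CPM in the wild type libraries and 53.0 and 15.6 CPM in the mutant libraries against 184 to 266 CPM (log2 ratio -2.81, SE 0.18, adjusted p = 1.3e-07). Every library's Neurog3 cells lay below every library's precursors for both genes. Gfi1, which favours goblet and Paneth fates over the endocrine one, was also lower (-2.26), as were the chemokines Ccl6 (13.3-fold) and Ccl9 (12.2-fold), Spink4 (9.82-fold), Ramp1 (14.8-fold), the potassium channel Kcnk6 (16.0-fold), Tpsg1 (10.9-fold), Hgfac and Lrrc26. Of 13 Paneth markers, 12 were lower. Of 13 mitochondrial mRNAs none was called in either direction (median -0.06). Of 28 G2 and M phase genes 10 were lower and none higher, and of 26 S phase genes 9 were lower and 1, Mcm7, was higher (0.36).

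Notch pathway genes did not move as a block. Against the Dll1 precursors, 7 of 21 tested secretory and Notch genes were higher, 7 lower and 7 not called. In log2 ratio, those higher were Mib1, a ligase acting on Notch ligands (0.33), the Fringe glycosyltransferases Mfng (4.99) and Lfng (0.68), which modify Notch receptors, Hes6, a Hes-family factor that does not act as a Notch-driven repressor (0.74), the Notch effector Rbpj (1.09), Numbl (5.99) and the receptor Notch3 (4.44). Those lower were Atoh1, Spdef, Gfi1, Bhlha15, Klf4, Sox9 and the Notch target Hes1 (-0.73). Dll1 itself was still found in 140 of the Neurog3 cells (52.2%), at 147 and 91.1 CPM in the wild type libraries and 129 and 96.0 CPM in the mutant libraries, above the 14.7 to 36.8 CPM of barcodes without Neurog3 (log2 ratio 1.91, SE 0.11, adjusted p = 2.7e-13). Dll4, another Notch ligand, stood at 36.7 and 25.1 CPM in the wild type libraries and 20.0 and 25.9 CPM in the mutant libraries and was not called against the precursors (log2 ratio -0.12, SE 0.17, adjusted p = 0.608).

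Hormone-producing enteroendocrine cells, the nearest later class, were taken as the 556 barcodes with 10 or more Chga plus Chgb UMIs and no Neurog3; these 2 granule genes are therefore not tested. Of 9927 genes tested, 2459 (24.8%) were higher and 2531 (25.5%) lower in the Neurog3 cells, 50.3% in all. All 12 hormone genes tested, of 21 measured, were lower, with a median log2 ratio of -7.83, or -7.45 with Cartpt, which had no UMI in the Neurog3 cells, at its bound. The median over all genes was 0.00. Cartpt, and Iapp with 3 UMIs in the Neurog3 cells against 2423, passed the filter on low counts through the hormone-producing class. Such genes could only come out lower in the Neurog3 cells, and the hormone-producing class was itself picked by granule genes. The counts of hormone and granule genes therefore describe how the classes were chosen as well as the cells. Gip, the incretin of K cells, stood at 28.2 and 11.8 CPM in the wild type libraries and 23.0 and 6.48 CPM in the mutant libraries against 19681 to 54147 CPM (log2 ratio -10.66, SE 0.28, adjusted p = 1.4e-09), and Sct, encoding secretin, at 77.7 and 85.6 CPM in the wild type libraries and 68.0 and 139 CPM in the mutant libraries against 10430.4 to 20969 CPM (log2 ratio -7.30, SE 0.24, adjusted p = 2.6e-09). Sst (-10.59), Nts (-9.99), Pyy (-8.06) and Cck (-7.21) showed ratios of the same order, while Tac1 (-2.19), Ghrl (-2.83) and Tph1 (-3.70) differed less. Of 28 granule genes tested, 27 were lower and 1 was not called (median -3.08). Cpe, a prohormone carboxypeptidase, gave -3.99, Scg2 -7.40, Pcsk1, the prohormone convertase, -1.83 and Ddc, the decarboxylase that completes serotonin synthesis, -0.43. Among the genes of largest ratio, Dlgap2 (at least 173-fold lower), the cannabinoid receptor Cnr1 (at least 148-fold lower), Ptger3 (at least 97.5-fold lower) and Trpm2 (at least 66.2-fold lower) had no UMI in the 268 cells.

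The transcription factors split between the 2 classes, with 11 of 32 higher in the Neurog3 cells, 18 higher in the hormone-producing cells and 3 not called. Factors of the first kind included Neurod2 (4.27 to 7.47 CPM in hormone-producing cells, log2 ratio 3.44, SE 0.23, adjusted p = 5.9e-07), Sox4 (125 to 233 CPM, log2 ratio 2.71, SE 0.19, adjusted p = 7.7e-07), Pax4 (7.47 to 11.4 CPM, log2 ratio 2.38, SE 0.19, adjusted p = 2.1e-06), Lmx1b (2.65), Foxa2 (1.31), Cbfa2t3 (1.48), Tox3 (1.01), Insm1 (0.74) and Nkx2-2 (0.72). Factors of the second kind included Etv1 (-5.64), Pax6 (-4.28), Peg3 (-3.81), Lmx1a (-3.61), Isl1 (-2.20), Fev (-1.41), Neurod1 (-0.98) and Rfx6 (-0.67). Of the 3 classes, Insm1 and Nkx2-2 were thus highest in the Neurog3 cells, while Neurod1 and Rfx6 were highest in hormone-producing cells. Onecut3 and Hhex, which mark enteroendocrine subtypes, were at least 52.2-fold lower and at least 44.1-fold lower.

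Among the other genes of largest ratio above the hormone-producing cells were Tead2, a partner of the Hippo pathway effector Yap (76.0 and 37.7 CPM in the wild type libraries and 45.0 and 49.3 CPM in the mutant libraries, 60.1-fold higher), Ooep (39.3-fold), Slc39a2 (36.1-fold), Epb42 (28.4-fold), Lypd1 (21.7-fold), Zc3h12c (15.8-fold), the angiomotin-family Amotl2 (12.2-fold) and the RNA-binding Mex3a (11.6-fold). Megf11 had 1 UMI in all hormone-producing cells and was 259-fold higher, with a 95% counting interval of 46.0 to 10306. Proliferation genes stood higher in the Neurog3 cells: 22 of 23 S phase genes (median 1.26) and all 27 G2 and M phase genes tested (median 1.91) were higher. Top2a stood at 12.3 to 90.9 CPM in hormone-producing cells (log2 ratio 2.24, SE 0.38, adjusted p = 5.2e-04), Mki67 at 8.97 to 44.2 CPM (log2 ratio 2.20, SE 0.42, adjusted p = 0.00111) and Mcm7 at 12.8 to 47.3 CPM (log2 ratio 1.79, SE 0.20, adjusted p = 2.7e-05). Mitochondrial mRNAs were higher for 10 of 13 (median 0.41). Prom1 was higher by a log2 ratio of 2.73. The doublet caller marked 130 hormone-producing barcodes (23.4%) and 453 Dll1 precursors (18.4%), against the 15.3% of Neurog3 cells; with all marked barcodes left out, 4929 genes were called here, of which 4423 were among the 4990 called with them, and 4427 against the precursors, of which 4092 were among the 4561.

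Within the 268 cells the number of Neurog3 UMIs ran from 2 to 61, with a median of 8. The medians were 14 and 9 UMIs in wild type 1 and 2 and 5 and 8 UMIs in mutant 1 and 2, in cells of unequal depth. Sorted into 3 bands, 59 cells had 2 to 3 UMIs, 100 had 4 to 9 and 109 had 10 or more. Pooled over libraries, Insm1 stood at 99.6, 242 and 431 CPM from the lowest band to the highest, Sox4 at 496, 856 and 1607 CPM, Gadd45a at 122, 339 and 729.9 CPM, and Neurod1 at 94.8, 249 and 389 CPM. Pax4 stood at 16.3, 35.8 and 86.0 CPM and Neurod2 at 24.9, 49.7 and 118 CPM. Atoh1 ran the other way, at 81.4, 28.5 and 12.0 CPM, and so did Mki67, at 187, 67.6 and 51.7 CPM. Insm1, Sox4 and Gadd45a were ordered the same way over the bands in each of the 4 libraries. Pax4 in mutant 1, at 17.9 CPM in the highest band against 48.8 CPM in the middle band, was an exception to its pooled order. The bands were cut on the measure that chose the cells and no test was made. The lowest band had medians of 29002, 11034, 10813 and 24774 UMIs per cell (wild type 1, wild type 2, mutant 1, mutant 2) against 18705, 11303, 7831 and 11372 UMIs in the highest. It held 15 marked doublets of 59 cells, against 9 of 109. Its summed goblet markers were 6719 to 24736 CPM, against 4929 to 9175 CPM in the highest band. The bands also differed in library make-up. Wild type 1 gave 7 cells to the lowest band and 34 to the highest, whereas mutant 1 gave 27 and 11. The part of library make-up, depth, doublets and goblet transcripts in the pooled order was not tested.

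**Figure D2:**
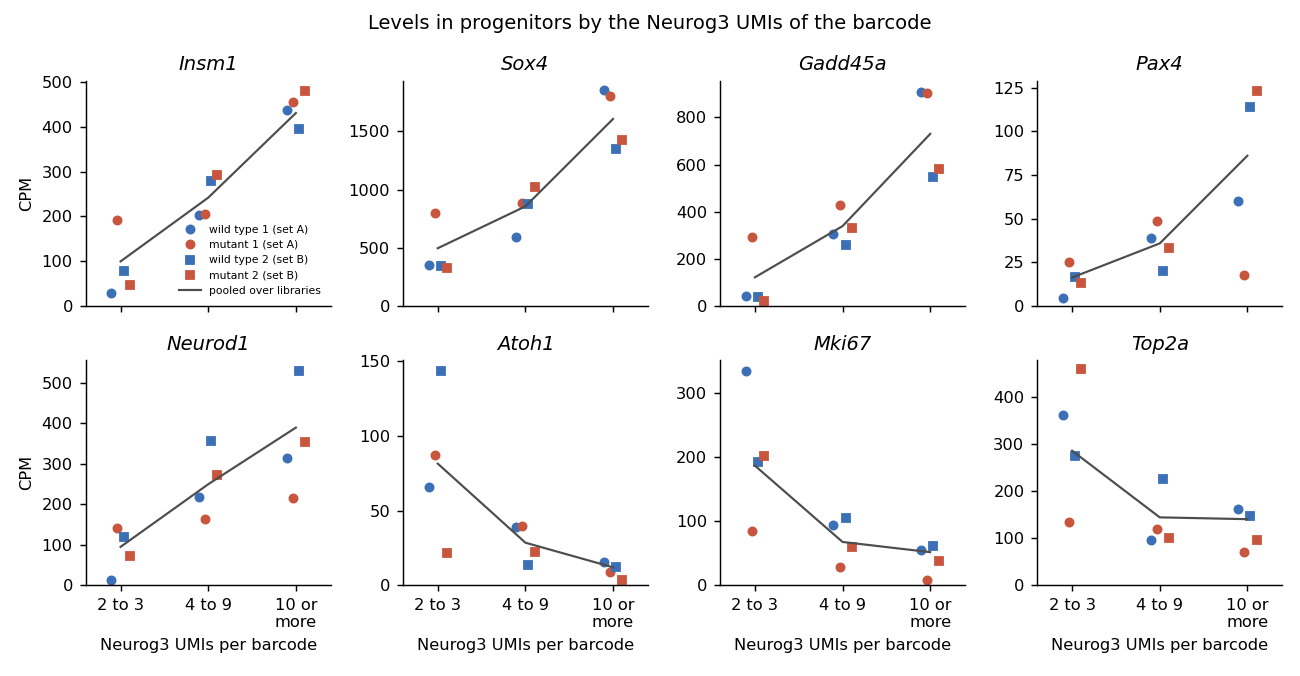
Level in CPM (vertical axis) of 8 genes in progenitors with 2 to 3, 4 to 9 and 10 or more Neurog3 UMIs (horizontal axis), with 1 point per library and a line for the value pooled over libraries. Insm1 goes from 99.6 to 431 CPM pooled and Atoh1 from 81.4 to 12.0 CPM; points of the lowest band rest on 7 to 27 cells per library.

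A smaller group of the cells already held transcripts of granule proteins. Late progenitors were taken as the 45 cells with 10 or more Chga plus Chgb UMIs and early progenitors as the 197 cells with 0 or 1; the 26 between entered neither class. Of 6059 genes tested, leaving out Neurog3, Chga and Chgb, 406 (6.7%) were higher and 379 (6.26%) lower in the late cells, 13.0% in all. Of 26 endocrine transcription factors tested, 14 were higher, 3 lower and 9 not called, with a median log2 ratio of 0.90 against -0.01 over all genes. Neurod1 stood at 490.3 and 852 CPM in the wild type libraries and 606 and 578 CPM in the mutant libraries in late cells and at 73.3 to 222 CPM in early ones (log2 ratio 2.17, SE 0.20, adjusted p = 1.5e-06). Isl1, a LIM-homeodomain factor of maturing endocrine cells, stood at 270.2 and 252 CPM in the wild type libraries and 371 and 228 CPM in the mutant libraries against 16.4 to 32.8 CPM (log2 ratio 3.43, SE 0.25, adjusted p = 1.1e-07). Fev, a factor of serotonin-producing cells, stood at 40.0 and 318 CPM in the wild type libraries and 280.4 and 321 CPM in the mutant libraries against 0 to 9.05 CPM (log2 ratio 5.73, SE 0.36, adjusted p = 2.2e-08). In each case the late values of all libraries lay above all early values, although for Fev wild type 1 was well below the other 3. In log2 ratio, the corepressor Runx1t1 (3.60), Mlxipl (1.97), Rfx3 (1.55), Myt1 (1.51) and St18 (1.04) were higher too, and Lmx1a, a factor of serotonin cells with 1 UMI in all early cells, was 537-fold higher, with a 95% counting interval of 94.4 to 21397.

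Insm1, Neurod2, Pax4 and Sox4 were not called higher in the late cells. Insm1 stood at 212 to 316 CPM in early and 270.2 to 385 CPM in late cells and was not called (log2 ratio 0.20, SE 0.19, adjusted p = 0.574), nor was Neurod2 (log2 ratio -0.09, SE 0.30, adjusted p = 0.899) or Pax4 (log2 ratio 1.01, SE 0.40, adjusted p = 0.121). Nkx2-2 (0.75), Rfx6 (0.79) and Gfra3 (0.71) were higher by smaller amounts. Sox4 was lower in the late cells, at 395 and 373 CPM in the wild type libraries and 588 and 307 CPM in the mutant libraries against 1092 to 1528 CPM (log2 ratio -1.73, SE 0.17, adjusted p = 2.7e-06), and Foxa2 (-1.04), Cbfa2t3 (-0.63) and Rcor2 (-1.27) were lower as well.

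Among hormone genes, Tac1, Ghrl and Tph1 differed most between late and early cells. Of 5 hormone genes tested, 4 were higher and Cck was not called. Tac1, which encodes substance P, stood at 825 and 822 CPM in the wild type libraries and 651 and 1106 CPM in the mutant libraries against 0 to 8.60 CPM (log2 ratio 7.69, SE 0.32, adjusted p = 2.8e-10). Ghrl, which encodes ghrelin, stood at 200.1 and 3389.6 CPM in the wild type libraries and 606 and 1399 CPM in the mutant libraries against 1.72 to 12.6 CPM (log2 ratio 6.72, SE 0.49, adjusted p = 1.1e-07), with a wide spread and its highest value in wild type 2. Tph1, the enzyme that commits tryptophan to serotonin, stood at 240.1 and 272 CPM in the wild type libraries and 353 and 307 CPM in the mutant libraries and had no UMI in early cells, so that it was at least 299-fold higher against the floor of 3 UMIs over the 4 libraries. Sct was higher by a log2 ratio of 1.63. Gip, Sst, Nts, Gcg and Pyy did not pass the filter on low counts in this comparison. Tph1 (184 UMIs in late cells) and Rab3c (172 UMIs against 1) passed it through the late class and could only come out higher. Late cells were picked by the granule genes Chga and Chgb, so higher granule and hormone genes follow in part from that choice. Of 17 granule genes tested, 15 were higher and none lower (median 2.53), such as Cpe (4.34), Pam (3.91), which amidates peptide hormones, Scgn (5.15), Gch1 (4.22), which makes the cofactor of serotonin synthesis, Slc18a1 (3.27), which loads amines into vesicles, Snap25 (2.88) and Pcsk1 (1.58). The genes of largest ratio also held Rab3c (839.5-fold higher, with a 95% counting interval of 149 to 33349.7), the intermediate filament Vim (600.4-fold higher, with a 95% counting interval of 106 to 23903), the transporter Slc38a11 (at least 79.7-fold higher), the calcium channel Cacna1d (99.2-fold higher, with a 95% counting interval of 32.4 to 495) and the adhesion molecule Ncam2 (106-fold higher).

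**Figure D3:**
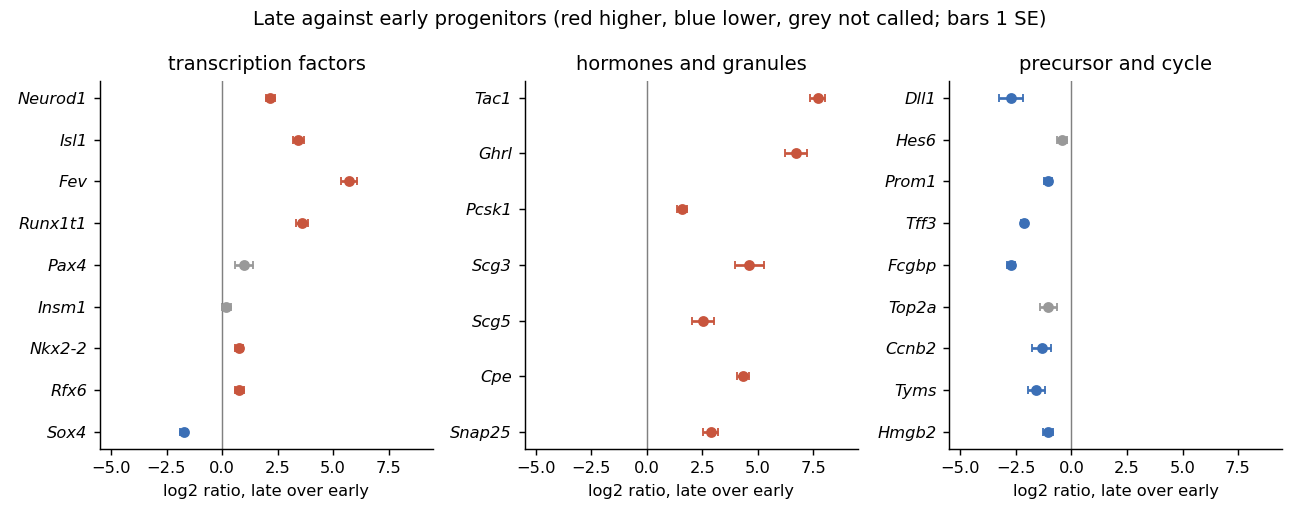
Log2 ratio of late over early progenitors (horizontal axis) with bars of 1 SE, for transcription factors, hormone and granule genes, and precursor and cell-cycle genes; red points were called higher, blue lower and grey not called. Tac1 and Ghrl lie furthest right at 7.69 and 6.72, and Sox4, Dll1 and Fcgbp lie left of 0.

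The late cells were lower in Dll1, in most goblet markers tested and in a minority of the cell-cycle genes. Dll1 stood at 0 and 0 CPM in the wild type libraries and 54.3 and 64.2 CPM in the mutant libraries in late cells against 112 to 188 CPM in early cells (log2 ratio -2.71, SE 0.53, adjusted p = 0.00240), so both wild type libraries had no UMI in their late cells. With DESeq2 in place of edgeR, Dll1 was no longer called (adjusted p = 0.107). Of 13 goblet markers tested, 10 were lower and none higher (median -2.16): Fcgbp gave -2.73, Tff3 -2.16 and Clca1 -3.84. The genes of largest ratio also held Rnase1 (15.8-fold lower), Dpysl5 (8.38-fold), the survival gene Bcl2 (7.34-fold), S100a6 (6.08-fold), Rnf180 (8.88-fold lower, with a 95% counting interval of 2.97 to 43.6) and the mitotic phosphatase Cdc25b (8.06-fold lower, with a 95% counting interval of 2.69 to 39.6). Of 13 S phase genes tested 4 were lower and of 17 G2 and M phase genes 5 were lower, among them Tyms (-1.58), Mcm7 (-1.22), Hmgb2 (-1.07) and Ccnb2 (-1.35); none of either list was higher. Of 13 mitochondrial mRNAs, 6 were lower (median -0.30). The late cells held 11 marked doublets of 45 (24.4%) against 24 of 197 (12.2%) early cells; without marked doublets 895 genes were called, 648 of them among the 785 called with all cells. The late class rests on 7 to 15 cells per library. DESeq2 called 379 genes (225 higher, 154 lower), and without wild type 2 the edgeR test called 486.

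In single cells, Tac1 alone was detected in 25 cells, Ghrl alone in 24 and both in 1. Pax4 was found in 94 cells, of which 82 also had Neurod1. The share of cells with Pax4 was 34.0% and 38.2% in wild type 1 and 2 and 28.2% and 41.2% in mutant 1 and 2. These counts describe detected UMIs at unequal depth, and a cell without a UMI may still express the gene.

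The share of Neurog3 progenitors was lower in both mutant libraries than in both wild type libraries. It was 1.10% (exact Clopper-Pearson 95% interval 0.820 to 1.45) in wild type 1 and 1.09% (0.874 to 1.34) in wild type 2, against 0.678% (0.536 to 0.846) in mutant 1 and 0.590% (0.439 to 0.775) in mutant 2. The intervals cover counting error only. The genotype means were 1.09% ± 0.0115 (SD, n = 2) in wild type and 0.634% ± 0.0624 (SD, n = 2) in mutant, a ratio of 0.579 (log2 -0.79), and the groups did not overlap. Within sets the log2 ratio came to -0.70 (set A) and -0.88 (set B). The exact two-sided permutation test gave p = 0.333, the smallest that 2 libraries against 2 can give, so this design cannot pass 0.05. Thinned to 4000 UMIs per barcode, which left out 2012 to 2614 barcodes in 3 libraries and 862 in wild type 1, the shares were 0.926% and 1.02% in wild type 1 and 2 and 0.585% and 0.528% in mutant 1 and 2 (log2 -0.80; exact permutation p = 0.333).

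**Figure D4:**
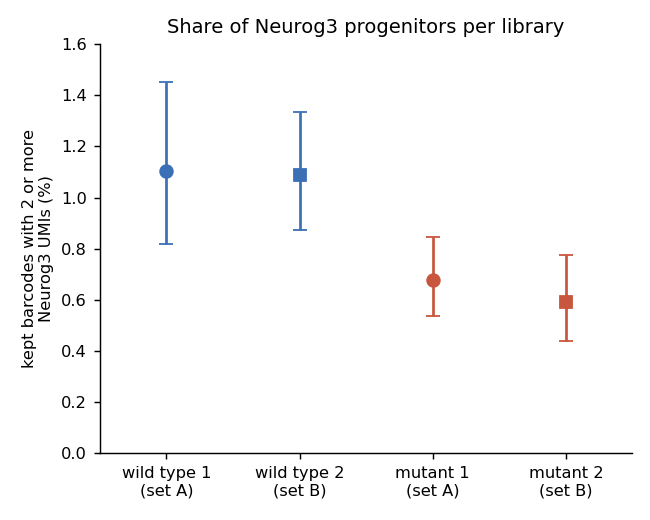
Percentage of kept barcodes with 2 or more Neurog3 UMIs (vertical axis, from 0) in each library, with exact 95% binomial intervals as bars; circles are set A and squares set B, blue is wild type and red mutant. Both wild type libraries lie near 1.1% and both mutant libraries below 0.7%.

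Free RNA was gauged in barcodes with 2 or more UMIs of Alpi, an enterocyte gene, which should lack Neurog3. Of these, 0 of 468 in wild type 1, 1 of 683 (0.146%) in wild type 2, 0 of 352 in mutant 1 and 0 of 626 in mutant 2 had 2 or more Neurog3 UMIs. A count of 0 allows up to 0.641%, 0.852% and 0.479% in wild type 1, mutant 1 and mutant 2, so in mutant 1 the limit exceeds the share of progenitors itself. Median depths of these barcodes were 7800, 10497, 10989 and 10321 UMIs in wild type 1, wild type 2, mutant 1 and mutant 2. At 1 or more UMIs, 11 of 683 Alpi barcodes (1.61%) of wild type 2 had Neurog3, and 1 of 626 of mutant 2, which is why a single UMI is not read as a progenitor.

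The size of the difference depended on what the cells were counted against. Among members that also had UMIs for 2 or more of Insm1, Nkx2-2, Rfx6 and Gfra3, the shares were 0.949% and 1.01% in wild type 1 and 2 and 0.626% and 0.474% in mutant 1 and 2 (log2 -0.83; exact permutation p = 0.333). Dll1 precursors were also a smaller share in the mutant library of each set, at 13.9% against 8.91% in set A and 5.74% against 3.86% in set B. The genotypes overlapped for this share (exact permutation p = 0.667). It was not thinned to equal depth, and the median kept barcode held 21250 UMIs in wild type 1 and 9861 UMIs in mutant 1. The part of depth in this share was not tested. As a share of Neurog3 cells plus Dll1 precursors, the Neurog3 cells made up 7.35% and 15.9% in wild type 1 and 2 and 7.07% and 13.2% in mutant 1 and 2, a log2 ratio of -0.20 with overlapping groups (exact permutation p = 0.667). As a share of Neurog3 cells plus hormone-producing cells they made up 33.3% and 41.0% in wild type and 28.0% and 28.7% in mutant (log2 -0.39; exact permutation p = 0.333). Late cells were 14.0% and 16.9% of the Neurog3 cells in wild type 1 and 2 and 16.7% and 19.6% in mutant 1 and 2 (log2 0.23; exact permutation p = 0.667). These 3 denominators, the share with 2 or more of the markers and the share of Dll1 precursors were added after the data were seen.

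Within the Neurog3 cells no gene was called between the genotypes. Of 9255 genes tested with edgeR, 0 (0.0%) passed an adjusted p of 0.05 and 280 had an unadjusted p under 0.05; DESeq2 also called 0, with 73 at an unadjusted p under 0.05. Counts of 9256 genes were simulated with the spread that this comparison shows at each expression level. On these the test recovered 40 of 100 2-fold changes and 97 of 100 4-fold changes. The changed genes were drawn from those with at least 30 CPM, so recovery at lower levels was not gauged. Even at these levels 2-fold differences would often have been missed. Neurog3 itself stood at 746 and 764 CPM in the wild type libraries and 440.0 and 589 CPM in the mutant libraries, lower in the mutant library of each set, which describes the measure that chose the cells. The genotypes did not overlap for 29.4% of all genes tested, and 53.4% had the same sign in both sets, 22.2% higher and 31.2% lower in the mutant.

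Values by gene list are given against those shares, with no test of the lists. Of 29 endocrine transcription factors tested, 5 were higher and 19 lower in the mutant in both sets, and for 13 the genotypes did not overlap, with a median log2 ratio of -0.21 against 0.00 over all genes. Insm1 gave -0.45 within set A against -0.05 within set B, Neurod1 -0.57 within set A against -0.70 within set B, Rfx6 -0.48 within set A against -0.39 within set B and Pax4 -0.29 within set A against -0.09 within set B. For Rfx6 the mutant value lay below the wild type value within each set, but mutant 2 lay above wild type 1. Cells with 10 or more Neurog3 UMIs numbered 34 of 50 in wild type 1 and 42 of 89 in wild type 2. They numbered 11 of 78 in mutant 1 and 22 of 51 in mutant 2. Insm1, Neurod1, Sox4 and Pax4 were higher in that band when pooled. The part of the Neurog3 level in the values of this list was not tested. Of 20 granule genes, 1 was higher and 12 lower in both sets (median -0.30). Of 25 S phase genes, 14 were higher and 1 lower in both sets (median 0.43), and of 28 G2 and M phase genes, none was higher and 18 were lower (median -0.37). Mcm7, a subunit of the replicative helicase, gave 0.58 within set A against 0.51 within set B and Mcm6 0.52 within set A against 0.84 within set B, whereas the mitotic gene Tacc3 gave -1.33 within set A against -0.32 within set B. Of the 13 mRNAs encoded by mitochondrial DNA, 10 were higher and 1 lower in both sets (median 0.28), and for 5 the genotypes did not overlap. Among these 5, mt-Cytb stood at 3479.8 and 3933 CPM in the wild type libraries and 5368 and 5736 CPM in the mutant libraries. Also among them, mt-Nd1 stood at 2541 and 3127 CPM in the wild type libraries and 3682 and 4109 CPM in the mutant libraries. Of 14 enterocyte markers tested, 9 were likewise higher and 1 lower in both sets, with medians of 1.37 (set A) and 0.22 (set B), while their summed level was 1086 and 2741 CPM in wild type 1 and 2 and 1804 and 2508 CPM in mutant 1 and 2. The part of enterocyte transcripts in the other list values was not tested. Of 17 integrated stress response genes, 5 were higher and 5 lower in both sets (median 0.19), among them Mthfd1l, a mitochondrial folate enzyme, at 15.4 and 19.6 CPM in the wild type libraries and 41.0 and 45.4 CPM in the mutant libraries, and Atf4, the factor of that response, at 143 and 81.7 CPM in the wild type libraries and 123 and 46.7 CPM in the mutant libraries.

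**Figure D5:**
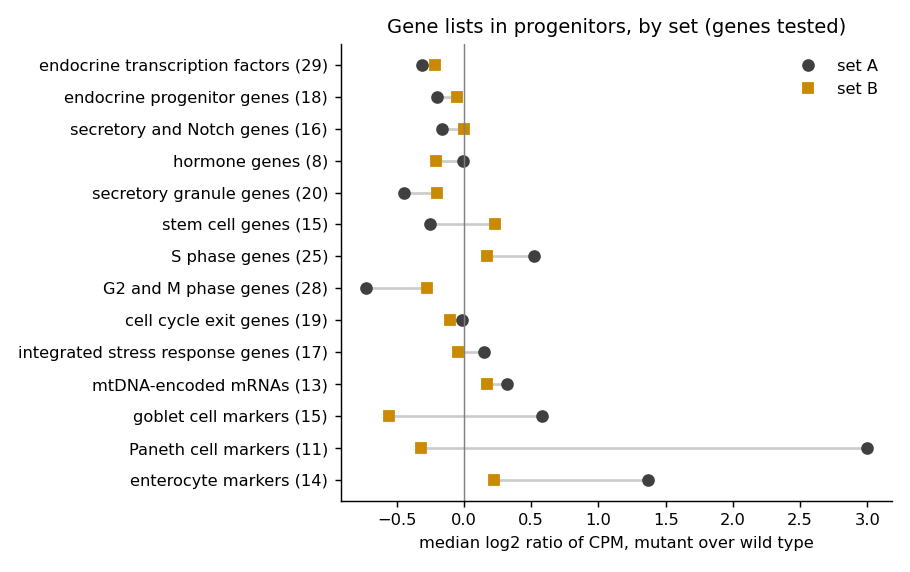
Median log2 ratio of CPM, mutant over wild type, in Neurog3 progenitors (horizontal axis) for 14 gene lists, separately in set A (circles) and set B (squares), with the number of genes tested in brackets. The S phase list lies right of 0 and the G2 and M phase list left of 0 in both sets, while the goblet and Paneth lists lie on opposite sides.

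The genes with the smallest unadjusted p are given as values only, since none passed adjustment (adjusted p = 0.999 for each). Higher in the mutant were St3gal4, a sialyltransferase (82.8 and 69.9 CPM in wild type and 240.0 and 169.9 CPM in mutant), Reg3g, an antimicrobial lectin (442 and 361 CPM in wild type and 1074 and 759 CPM in mutant), and Arg2, the mitochondrial arginase (9.39 and 40.9 CPM in wild type and 84.0 and 77.8 CPM in mutant). The defensins Defa22 and Defa21 were also in this group, with log2 ratios of 2.32 and 2.24, and Defa22 stood at 149 and 438 CPM in wild type and 2039.9 and 799 CPM in mutant; they are Paneth genes, 2 cells of mutant 1 had 10% or more defensin UMIs, and their part in these ratios was not tested. Reg3g and Arg2 were below the level of barcodes without Neurog3 in every library, where Reg3g stood at 1835 to 3099 CPM and Arg2 at 112 to 201 CPM. Lower in the mutant were Ncam2, which was also among the genes higher in late than in early cells (67.4 and 119 CPM in wild type and 33.0 and 24.6 CPM in mutant), Ror2, a Wnt5a receptor (154 and 154 CPM in wild type and 87.0 and 99.9 CPM in mutant), 1500009L16Rik (117 and 101 CPM in wild type and 63.0 and 49.3 CPM in mutant), Txndc12 (108 and 96.6 CPM in wild type and 59.0 and 58.4 CPM in mutant) and Myef2 (103 and 88.8 CPM in wild type and 52.0 and 60.9 CPM in mutant). For all 5 of these the mutant libraries lay below the wild type libraries. For all 5 genes higher in the mutant, both mutant libraries lay above both wild type libraries. The genes of both directions were picked by small p and equal sign in both sets, and that choice favours such separation. The genotypes did not overlap for 29.4% of all genes tested.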

How the data were processed

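The authors deposited raw UMI counts per gene and barcode as Cell Ranger matrices for all 4 libraries. The file headers name version 7.0.0 for set A but 7.1.0 for set B, and the submitters' processing notes name mm10. Aligner settings, and whether intronic reads entered the counts, were not given in the sources used here. Members and gene lists were chosen with earlier results of these data known.

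Barcodes with at least 1000 UMIs, 500 genes and under 30% mitochondrial UMIs were kept, and counts were summed per library and class. Sums were tested with edgeR 4.0.16 in R 4.3.3 (quasi-likelihood test, TMM, filterByExpr, Benjamini-Hochberg adjusted p under 0.05), with library as a block between classes and no block between genotypes; the set as a block, DESeq2 1.42.0, other scalings, filters, thresholds and each library left out were alternatives. Genes that define a class were left out of its calls. Shares were compared by exact two-sided permutation over libraries. Doublets were marked with scrublet through scanpy 1.11.5 at an expected 0.8% per 1000 barcodes. CPM values in the text are plain counts over the class total, so ratios of CPM need not equal the TMM-scaled log2 ratios; an SE belongs to the log2 ratio. Levels are not compared between genes.

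Genes named beyond the lists were the 10 per direction of largest log2 ratio among called genes with at least 30 CPM in the higher class and the same sign in all 4 libraries; between genotypes, with none called, the 5 per direction of smallest unadjusted p, of the same sign in both sets and at least 50 CPM. Where a class held 3 or fewer UMIs of a gene, a ratio of pooled CPM with an exact 95% counting interval replaces the fitted value, and a class at 0 gives a bound against 3 UMIs over the 4 libraries. The tests were run on simulated counts first, with the changes placed in genes of at least 30 CPM. Of 100 2-fold changes, the test found 100 against barcodes without Neurog3, 95 against hormone-producing cells, 100 against Dll1 precursors and 65 between late and early cells. Promoters and gene positions were matched by symbol.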

Additional observations from a re-analysis of the deposited data

Results flagged for a closer look

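Goblet and Paneth cell markers moved in opposite directions in the 2 sets within the Neurog3 progenitors, which is why they are listed. The median log2 ratio of mutant over wild type over the goblet markers was 0.58 in set A but -0.56 in set B. For the Paneth markers the medians were 3.0 within set A against -0.32 within set B. Each set holds 1 library of each genotype, and the difference between the sets was not tested. The summed goblet level was 8003 CPM in wild type 1 against 14035 CPM in mutant 1, and 11385 CPM in wild type 2 against 7668 CPM in mutant 2. The summed Paneth level was 1136 CPM in wild type 1 against 11303 CPM in mutant 1, and 7069 CPM in wild type 2 against 5037 CPM in mutant 2.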

How the results depend on the processing

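Between genotypes, the count of 0 called genes became 34 (28 higher, 6 lower) without the filter on low counts and 12 to 57 when 1 library was left out, which leaves 1 library to vary like the other genotype's pair. No other alternative for that count gave a call. With the replicate block by set, 0 genes were called and 568 had an unadjusted p under 0.05; the labels number no replicates, so the set is the only pairing. For late against early cells, DESeq2 called 379 genes against 785, and leaving out 1 library gave 486 to 627. Dll1 in that comparison lost its call with DESeq2. The other genes picked by largest ratio or smallest unadjusted p kept direction and call wherever an alternative gave an adjusted p. Exceptions were values between genotypes that passed only without the filter or without 1 library. No value of these picked genes reversed. Genes named only from the lists were not followed through the alternatives. The log2 ratio of the share of Neurog3 cells ran from -0.69 to -0.93 over the thresholds, filters, thinning and left-out libraries. Scaling by library size alone moved the median of all genes from -0.09 to 0.12 against barcodes without Neurog3, from -0.03 to 0.11 against Dll1 precursors and from -0.01 to 0.13 between late and early cells. Depth limits the late class, which sums to 648816 UMIs over 45 cells.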
